A study of Homo sapiens with 17 samples.

Results

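Exon regions at gene 3′ ends were the stretches that the deposited tables placed on an exon of 1 gene, with another exon of that gene within 10000 bp on their upstream side and none on their downstream side. Upstream and downstream were read along the strand of the gene. A region entered when its overlap entry held a single gene marked E or PE, read here as exon and as promoter with exon. The rule used no measured value. It found 11837 of 77311 regions in 22Rv1, 12138 of 110260 in LNCaP and 13443 of 139373 in HPr1AR, which is 37418 of 326944 regions in all. They lay on 8063, 8215 and 8733 genes in 22Rv1, LNCaP and HPr1AR, and 70.0%, 69.9% and 67.5% of these genes held 1 such region. The largest number on a gene was 11, 10 and 11 in the same order of lines.

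The study sequenced RNA fragments pulled down with an m6A antibody or with IgG from 3 human prostate cell lines, in a series about the retinoic acid receptor RARG. The samples were 22Rv1 m6A (n = 2), 22Rv1 IgG (n = 3), LNCaP m6A (n = 3), LNCaP IgG (n = 3), HPr1AR m6A (n = 3) and HPr1AR IgG (n = 3). 22Rv1 and LNCaP are prostate cancer lines grown in RPMI medium with serum, and HPr1AR is an immortalised non-malignant prostate epithelial line that was grown in serum-free keratinocyte medium. For 22Rv1 m6A these were replicates 1 and 3. All samples were labelled wild type and vehicle treated, and the labels describe biological triplicates. Samples were grouped by their titles, because the description field of several samples names the table of another line than the title does. The line and the medium cannot be told apart, and each line stands for itself alone.

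N6-methyladenosine, m6A, is a methyl mark that a writer complex around METTL3 and METTL14 places on adenosines of messenger RNA, that FTO and ALKBH5 can remove, and that YTH-domain proteins read. In mammalian messenger RNA it is known to be dense near stop codons and in long last exons, and sparse in short internal exons. Last exons usually hold the stop codon, the 3′ untranslated region and the sites at which the transcript is cut and polyadenylated.

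Each table gave, per region, the number of windows, a log2 fold, a p-value and an adjusted p-value. Single samples have no values in them, and the spread between replicates is therefore unknown. The deposited log2 fold subtracted the IgG term with a weight of 2. For each region the m6A and IgG reads in its representative window were therefore recovered as whole numbers from the fold and the p-value, and compared as an ordinary ratio of read rates. The rebuilt depths were 3.30, 3.92 and 5.13 M m6A reads and 4.82, 8.87 and 11.7 M IgG reads in 22Rv1, LNCaP and HPr1AR. Whole reads were found for 99.8%, 98.5% and 100% of the regions with a p-value above 0. After a random shift of the fold they were found for 1.502%, 16.7% and 1.07%, so LNCaP was the least certain, and 18.1% of its members allowed several pairs of reads against 1.402% in 22Rv1 and 1.31% in HPr1AR. Where the deposited p-value was 0, in 45, 2649 and 3212 members, the smallest fitting pair was used, and its reads are given as "at least". Of 11 luminal markers, 11, 11 and 7 had any region in 22Rv1, LNCaP and HPr1AR, and of 11 basal markers 4, 3 and 11 did, with the luminal KLK3, KLK2, TMPRSS2 and FOLH1 absent from HPr1AR and the basal KRT5, KRT14 and TP63 absent from 22Rv1 and LNCaP. Only 11.67%, 11.7% and 11.41% of the members lay inside their gene's span in RefSeq GRCh38, although the submitters' processing notes name hg38. Coordinates are therefore printed as the tables have them, with their build unsettled.

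The position label also had a limit. The same gene was listed again more than 10000 bp further downstream for 13.9%, 17.3% and 20.3% of the members in 22Rv1, LNCaP and HPr1AR, so these did not sit at the end of the longest listed stretch of their gene. They were narrow, with median widths of 190, 210 and 220 bp, and 46.7%, 37.98% and 37.9% of them had a higher m6A than IgG read rate. For another 24.7%, 22.4% and 22.2% of the members the same gene was listed again within 10000 bp downstream. Of these, 67.1%, 60.3% and 60.2% were higher. Members with no further listing downstream made up 61.4%, 60.3% and 57.5%, and 73.0%, 68.9% and 68.8% of them were higher.

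In all 3 lines the m6A read rate was above the IgG read rate more often at gene ends than over all regions. The m6A read rate was higher at 67.9% of the gene-end regions in 22Rv1, against 56.4% of all its regions. In LNCaP it was higher at 61.6% of them, against 41.0% of all regions, and in HPr1AR at 60.6%, against 40.6%. Those are 8036, 7478 and 8150 regions by an exact two-sided binomial test of the rebuilt reads, with a Benjamini-Hochberg adjusted threshold of 0.05 over the whole table. The 95% Wilson intervals of the shares were 67.0 to 68.7%, 60.7 to 62.5% and 59.8 to 61.4%, and they cover counting error only. Lower calls were few, with 94, 22 and 25 gene-end regions, or 0.794%, 0.181% and 0.186%, beside 0.936%, 0.14% and 0.122% of all regions. The median log2 read ratio, m6A over IgG, was 2.63, 2.37 and 2.21 at gene ends, beside 2.10, 1.31 and 1.23 over all regions. By the authors' own adjusted p nearly every region passed at 0.05, namely 99.4%, 97.5% and 97.8% of the gene ends, against 99.3%, 95.4% and 96.5% of all regions.

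The medians of all regions were far from 0, so the same calls were also made relative to them. Relative to its line's median, the ratio was higher at 31.1%, 44.8% and 44.0% of the gene-end regions in 22Rv1, LNCaP and HPr1AR, against 17.2%, 23.0% and 22.8% of all regions. It was lower at 16.03%, 8.96% and 8.25% of them, against 19.1%, 12.9% and 10.1% of all regions. On this scale too the gene ends were above the background in the share of higher calls and below it in the share of lower calls, in each line.

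Exon regions between other exons of their gene gave the plainest contrast. They were higher in 33.7%, 28.9% and 30.05% of cases in 22Rv1, LNCaP and HPr1AR, with n of 22868, 27139 and 32817 internal regions. Regions at gene 5′ ends were higher in 58.5%, 54.4% and 53.9% over all widths, but at like widths the 3′ ends were not always above them. Among regions of 201 to 400 bp, 65.7%, 46.9% and 48.6% of the 3′ ends and 70.9%, 55.7% and 58.4% of the 5′ ends were higher, and from 401 to 800 bp 77.6%, 66.0% and 65.4% of the 3′ ends and 78.6%, 70.0% and 71.3% of the 5′ ends. Exon regions with no neighbouring exon listed were higher in 70.4%, 63.2% and 63.6%, a share above that of the 3′ ends, although their median widths of 420, 490 and 480 bp were smaller. Between gene ends and internal exons width differed as well, with medians of 540, 720 and 650 bp at gene ends against 200, 230 and 240 bp inside genes, and the representative window of a wider region is picked from more windows. Weighted to the widths of the gene-end regions, the internal regions reached 47.4%, 44.6% and 42.8%, and the gene ends were above them in 8 of 8 width classes in each line. Weighted to widths and reads together, they reached 52.9%, 49.5% and 48.1%, with the gene ends above in 32 of 35, 31 of 37 and 33 of 37 classes.

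**Figure D1:**
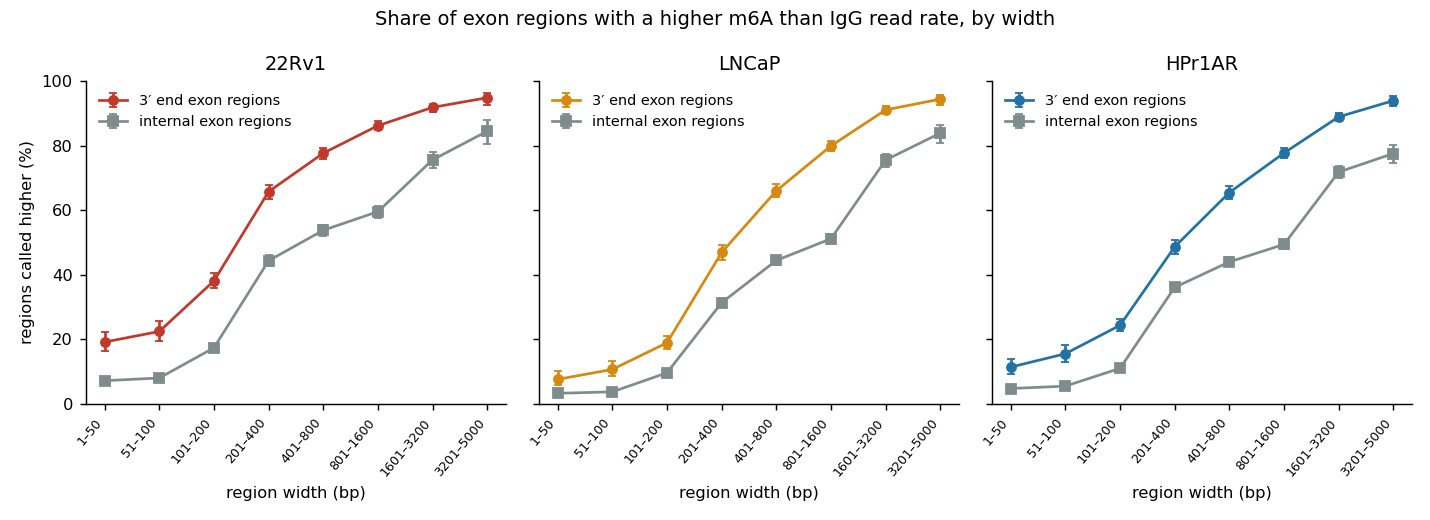
Share of exon regions called higher for m6A than IgG (y axis, percent) in classes of region width in bp (x axis), for gene 3′ ends and internal exons in 22Rv1, LNCaP and HPr1AR. Bars through the points are 95% Wilson intervals. Gene-end regions climb with width, to 94.8%, 94.4% and 93.9% in the widest class, and lie above internal regions in every class.

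The share of higher calls grew with width at every step. Among gene-end regions of up to 50 bp it was 19.1%, 7.55% and 11.3% in 22Rv1, LNCaP and HPr1AR. From 201 to 400 bp it was 65.7%, 46.9% and 48.6%, and from 801 to 1600 bp it was 86.2%, 79.9% and 77.7%. Wide stretches at gene ends were therefore nearly all called, and stretches of a few windows mostly were not. How far width itself sets the call was not tested.

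Where a gene held several end regions, the most upstream was the most often higher. Genes were followed here over members without a far listing, each within 10000 bp of the last. In genes with 5 or more such regions the first was higher in 77.9%, 81.9% and 83.3% of 68, 72 and 84 genes in 22Rv1, LNCaP and HPr1AR. The second was higher in 26.5%, 12.5% and 11.9% of the same genes, and the fifth and further ones in 25.6%, 14.04% and 16.8%. The drop was in m6A reads. First regions had medians of 42.5, 52 and 51 m6A reads, second regions 4.5, 3 and 3. IgG reads had medians of 5.5, 7 and 9 in first regions and 6, 7 and 7 in second ones. The median log2 ratio was 3.23, 3.56 and 3.24 in first regions, and 0.23, 0.07 and −0.06 in second ones. Widths moved along, with medians of 885, 1235 and 1190 bp against 185, 245 and 275 bp.

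**Figure D2:**
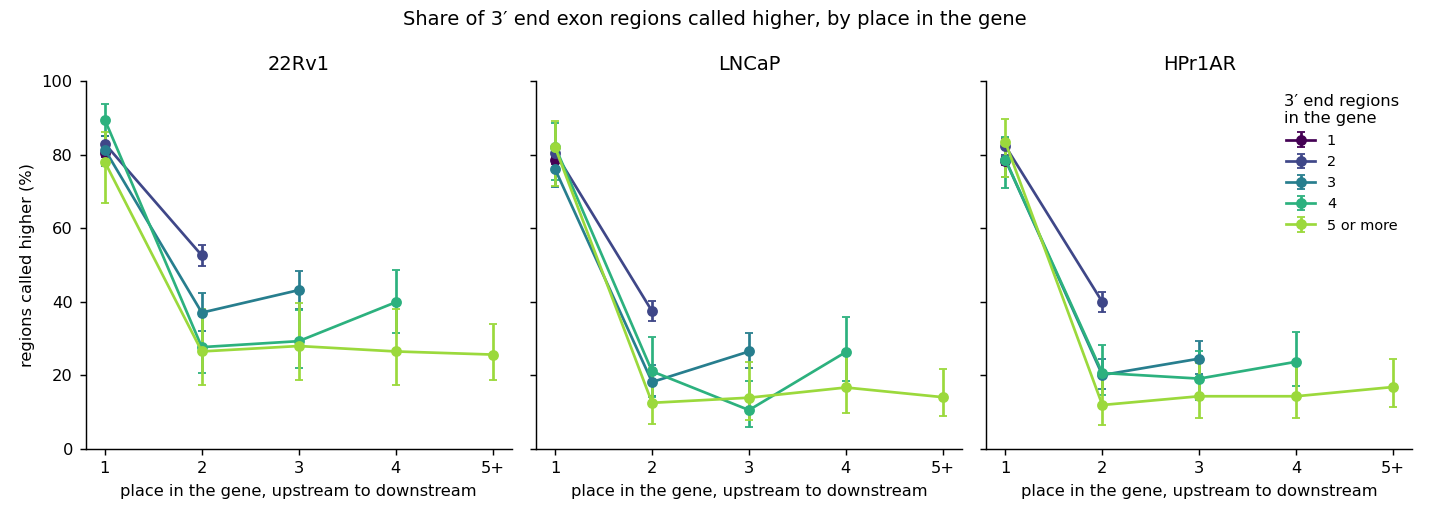
Share of gene-end regions called higher (y axis, percent) by their place in the gene from upstream to downstream (x axis), for genes with 1, 2, 3, 4 and 5 or more end regions in 22Rv1, LNCaP and HPr1AR. Lines join the places of genes with the same number of regions, and bars are 95% Wilson intervals. The first place lies at 76.0% or above in each line, and every later place lies at 52.6% or below.

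Genes with fewer end regions showed the same order. With 2 regions, the first was higher in 82.9%, 80.5% and 82.3% of genes and the second in 52.6%, 37.4% and 39.9%, in 22Rv1, LNCaP and HPr1AR. With 1 region only, it was higher in 80.5%, 78.4% and 78.2%. Among the 534, 492 and 574 genes with 3 or more, the first alone was higher in 186, 228 and 284, and the first with at least 1 other in 256, 156 and 171. A gene whose only higher region was not the first was rare, with 21, 22 and 25 cases, and none was higher in 60, 84 and 85 genes.

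Comparing the first with the last region of each gene, the first had the larger log2 ratio in 1357 of 1753, 1256 of 1615 and 1339 of 1744 genes, or 77.4%, 77.8% and 76.8%. The median difference, first minus last, was 1.58, 1.83 and 1.90 on the log2 scale. Restricted to genes in which both regions had widths within 2 times of each other, a comparison chosen after seeing the data, the shares were 66.7%, 66.1% and 63.9% of 544, 499 and 537 genes, and the median differences 0.58, 0.78 and 0.65. The direction was the same at like widths, and the median difference was smaller.

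DSTYK, a kinase gene with a long last exon, shows the pattern region by region. In 22Rv1 its first region, chr1:205116041-205116890 on the minus strand, had 66 m6A and 2 IgG reads, a log2 ratio of 5.59. The 7 regions that followed downstream had 6 and 3, 2 and 6, 1 and 7, 5 and 4, 6 and 5, 2 and 6, and 3 and 7 m6A and IgG reads, and none was called. LNCaP had at least 61 m6A and 2 IgG reads in its first region (log2 ratio 6.11) and HPr1AR at least 64 and 5 (4.87). In both, the second region had 6 m6A and 2 IgG reads and was still called higher, and the 5 after it were not. The most enriched region thus lay at the same place in the 3 lines.

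SMAD2, a transcription factor of the TGF-beta pathway, behaved alike. Its end stretch opened with 57 m6A and 11 IgG reads in 22Rv1 (log2 ratio 2.92), at least 56 and 11 in LNCaP (3.53) and at least 65 and 18 in HPr1AR (3.04), at chr18:45367761-45368330 on the minus strand in 22Rv1. No region downstream of these was called in any line, over 3, 7 and 6 regions. NFAT5, the factor of the response to high salt, had its only higher region at the start of the stretch, with 36 m6A and 9 IgG reads in 22Rv1 (log2 ratio 2.55), 24 and 7 in LNCaP (2.95) and 48 and 19 in HPr1AR (2.53). Further along in 22Rv1, a region of 140 bp had 0 m6A and 8 IgG reads and was called lower.

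CDC42BPA, a kinase that acts on the actin and myosin skeleton, had 53 m6A and 7 IgG reads in the first region of its stretch in 22Rv1 (log2 ratio 3.47), at least 58 and 15 in LNCaP (3.13) and 59 and 10 in HPr1AR (3.75). None of the regions after it was called. TNRC6B, a scaffold of microRNA silencing, had 59 m6A and 3 IgG reads in 22Rv1 (4.84), at least 60 and 11 in LNCaP (3.62) and at least 60 and 4 in HPr1AR (5.10). Its last region in 22Rv1, with 12 m6A and 2 IgG reads, was called again (log2 ratio 3.13), so the signal there was not limited to the start.

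**Figure D3:**
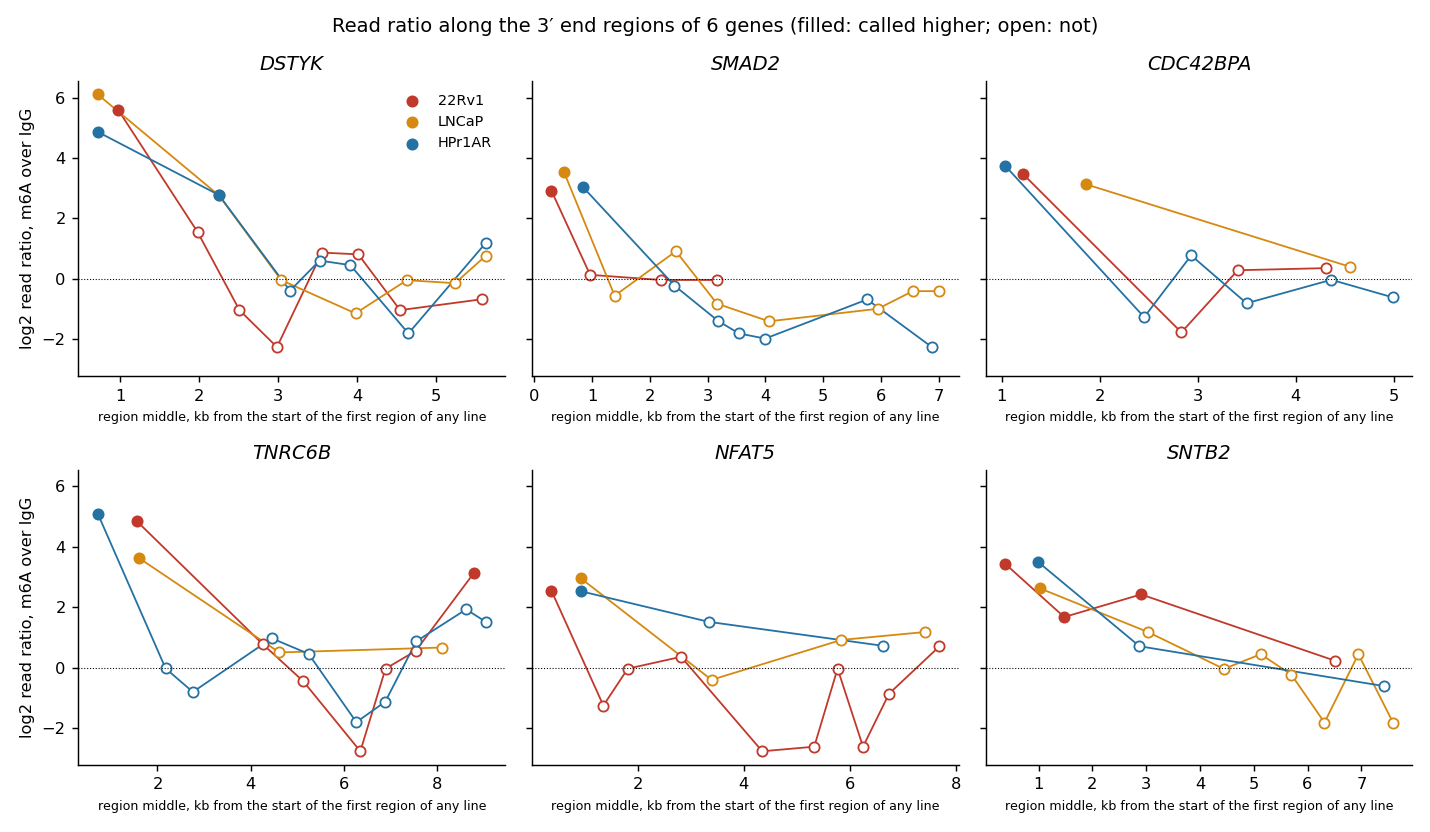
Log2 read ratio, m6A over IgG (y axis), of each gene-end region of 6 genes against the distance in kb of its middle from the first region of any line (x axis), in 22Rv1, LNCaP and HPr1AR. Lines join the regions of a line, filled points were called higher and open points were not. In DSTYK the first region lies at 5.59 in 22Rv1, 6.11 in LNCaP and 4.87 in HPr1AR, and the points from the third region on lie between −2.26 and 1.19.

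Other genes with many end regions departed from this order. SNTB2, which encodes a syntrophin, had 3 higher regions in a row in 22Rv1, with 52 m6A and 7 IgG reads, 24 and 11, and 11 and 3, at log2 ratios of 3.44, 1.67 and 2.42. In LNCaP, where the first region was wider and had at least 57 m6A and 21 IgG reads (2.62), and in HPr1AR, with at least 65 and 13 (3.51), the later ones were not called. RAB3IP, an exchange factor for Rab8, had peaks spaced along its stretch. Its 22Rv1 regions had 33 m6A and 11 IgG reads, then 52 and 7 and then 62 and 4, with uncalled regions between. LNCaP had 9 and 1, 32 and 3, and 21 and 1 reads over the same stretch and HPr1AR 18 and 6, 32 and 4, and 29 and 4, all called higher. ETNK1, an ethanolamine kinase, had no higher region in any line over 8, 4 and 6 regions, and 2 of its 22Rv1 regions, with 0 m6A and 9 IgG reads and 0 and 10, were called lower.

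The genes that ranked highest across the 3 lines together had nearly all their reads in the m6A fraction. PPP1R3B, which targets protein phosphatase 1 to glycogen, had at least 87 m6A and 2 IgG reads in 22Rv1, at least 63 and 1 in LNCaP and at least 59 and 1 in HPr1AR. METRNL, a secreted protein, had 79 m6A and 1 IgG reads in 22Rv1 at chr17:81052001-81053320, at least 66 and 1 in LNCaP and at least 69 and 3 in HPr1AR. The long non-coding RNA LINC00339 had 76 and 0 in 22Rv1, at least 61 and 2 in LNCaP and at least 61 and 2 in HPr1AR, over 770 to 1210 bp.

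CHMP6, a subunit of the ESCRT-III membrane machinery, had 85 m6A and 2 IgG reads in 22Rv1, at least 64 and 4 in LNCaP and at least 61 and 0 in HPr1AR. Its region began at chr17:78972161 in each line and was 3480, 3500 and 3510 bp wide. TMEM51, PARS2 (the mitochondrial prolyl-tRNA synthetase), TIFA (an adaptor of NF-kappaB signalling) and PGGHG (a glucosidase of collagen sugars) completed the 8. Over these 8 genes and 3 lines the log2 ratio lay between 4.70 and 7.22, and the largest adjusted p was 4.35e-26 (exact binomial test, Benjamini-Hochberg). The genes were ranked on these same values, so the ratios describe them and test nothing further.

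**Figure D4:**
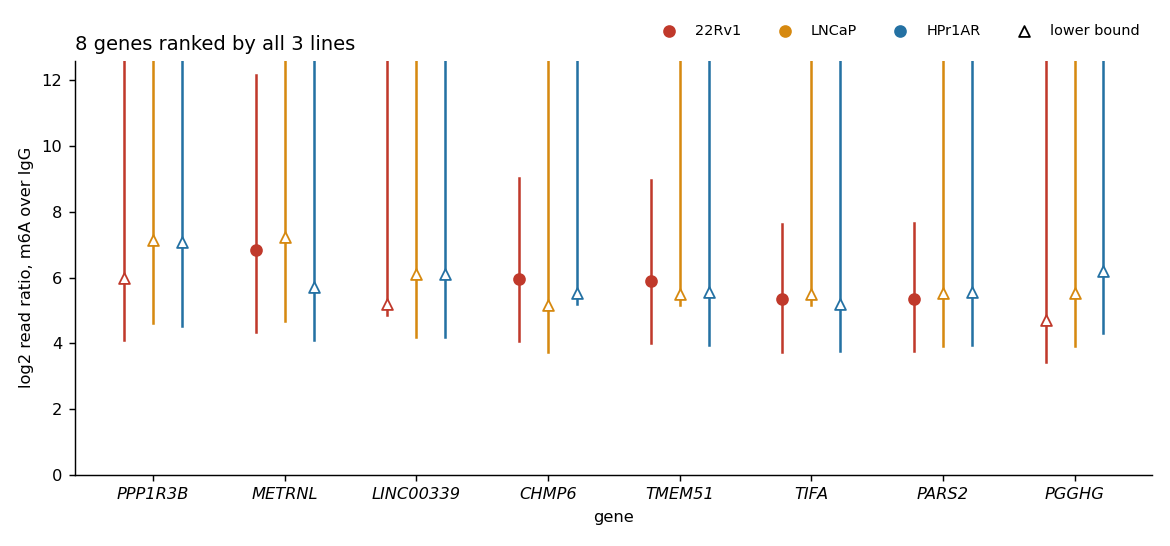
Log2 read ratio, m6A over IgG (y axis), of the gene-end region of 8 genes (x axis) in 22Rv1, LNCaP and HPr1AR. Bars are exact 95% intervals from counting, drawn open at the top for bounds, and open triangles mark lower bounds, where the deposited p-value was 0 or no IgG read was present. All 24 values lie between 4.70 and 7.22.

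Within single lines, the smallest adjusted p-values also fell on regions with 0 to 2 IgG reads. In 22Rv1 they included GFOD2, with 86 m6A and 1 IgG reads. TTL, the tubulin tyrosine ligase, had 80 and 0 there, and PLXND1, a semaphorin receptor, 88 and 2. In LNCaP they were on F10 (coagulation factor X), on the tyrosine kinase FRK and on TEX19, each with 60 m6A and 0 IgG reads, and on the DNA demethylase TET1 with 58 and 0. In HPr1AR they were on NHS, SPEG and ZNF30, each with 57 and 0, and on LIFR, the receptor for leukaemia inhibitory factor, with 56 and 0. F10 had a gene-end region in LNCaP alone, and SPEG and PRDM8 in HPr1AR alone. A count of 0 IgG reads gives only a lower bound, taken at 3 reads, and the log2 ratios of these regions were at least 5.28 to 5.50. No such ratio can be ranked above another at this depth.

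The widest gene-end regions were not the most enriched. NDST1, a heparan sulphate sulphotransferase, had a region of 4980 bp in 22Rv1 with 80 m6A and 8 IgG reads (log2 ratio 3.87) and of 4990 bp in HPr1AR with at least 63 and 18 (3.00). ATXN2L, whose region spanned 4980 bp at chr16:28843521-28848500 in both cancer lines, had 24 m6A and 21 IgG reads in 22Rv1 (log2 ratio 0.74) and 21 and 24 in LNCaP (0.98). Neither was called, and relative to the median of all regions the 22Rv1 value was called lower. FGFR3, a growth factor receptor, had 34 and 11 in 22Rv1 (2.18) and was higher, but not relative to that median.

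Genes of the ZNF family, which encode zinc finger proteins and whose last exon commonly holds most of the coding sequence, stood high. This group was picked after values were known. It held 495, 494 and 471 gene-end regions on 345, 347 and 321 genes in 22Rv1, LNCaP and HPr1AR, and 88.7%, 80.0% and 80.7% of them were higher, against 67.9%, 61.6% and 60.6% of all gene-end regions. Relative to the median of all regions the shares were 64.4%, 69.0% and 71.3%, against 31.1%, 44.8% and 44.0%. Their median log2 ratio was 4.28, 3.98 and 3.93. The regions were also wide, with medians of 1200, 1580 and 1390 bp. Of all gene-end regions of 801 to 1600 bp, 86.2%, 79.9% and 77.7% were higher, close to the ZNF shares. Relative to the median 48.9%, 62.7% and 61.3% of that width class were higher. ZNF regions on chromosome 19 were higher in 93.8%, 80.9% and 84.5% of cases.

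Gene-end regions of long non-coding RNAs numbered 171, 203 and 237 and were higher in 86.0%, 75.9% and 78.5%. Those of protein-coding genes were higher in 67.4%, 61.1% and 59.998%. The long non-coding members had few IgG reads, with medians of 1, 2 and 1 against 5, 7 and 8 in protein-coding members. Regions that lay 1 to 500 bp beyond the upstream exon were higher in 71.9%, 67.0% and 66.8%. Those at 501 to 1000 bp were higher in 73.5%, 70.0% and 68.6%, and those at 7001 to 10000 bp in 64.2%, 52.8% and 52.4%. Median widths differed as well, with 720, 970 and 930 bp at 501 to 1000 bp and 400, 420 and 420 bp at 7001 to 10000 bp. The median distance to that exon was 2252, 2325 and 2357 bp. Plus-strand members were higher in 67.7%, 61.4% and 60.9%, and minus-strand members in 68.1%, 61.9% and 60.3%.

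Gene ends with a lower m6A than IgG read rate were rare. CYP51A1, a demethylase of cholesterol synthesis, was lower in both cancer lines. At chr7:91741531-91741860 it had 7 m6A and 38 IgG reads in 22Rv1 (log2 ratio −1.89) and, in a region of nearly the same bases, 2 and 35 in LNCaP (−2.95). STAG2, a cohesin subunit, was lower in all 3 lines, with 2 m6A and 14 IgG reads in 22Rv1, 1 and 18 in LNCaP and 2 and 27 in HPr1AR. In LNCaP, PPA1, a pyrophosphatase, had 2 and 40 (−3.14), the mitochondrial NDUFA4 had 8 and 61 (−1.75), SDHB, a subunit of succinate dehydrogenase, had 1 and 21 (−3.21), and ACAT1, a thiolase, had 5 and 39 (−1.79). In HPr1AR, BZW1 had 11 m6A and 77 IgG reads (−1.62), ANXA5, a phospholipid-binding annexin, 21 and 105 (−1.13), and the actin-binding TWF1 1 and 30 (−3.72). SDHB was lower in 22Rv1 as well, with 3 and 17, and NDUFA4 in HPr1AR, with 5 and 36. The LNCaP reads of CYP51A1 and PPA1 were the nearest of several fitting pairs. Adjusted p-values of the regions named here for CYP51A1, PPA1, NDUFA4, BZW1, TWF1 and ANXA5 were 0.000287 to 0.00168 (exact binomial test, Benjamini-Hochberg). Those of SDHB and ACAT1, and that of STAG2 in 22Rv1, passed 0.05 but not 0.01.

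In 22Rv1 the lower regions were short and shallow. Leaving out members with a far listing, 82 remained, with a median width of 80 bp, 0 m6A reads and 9 IgG reads, and 35 of them had a higher region of the same gene upstream within 10000 bp. That is 42.7% of the lower regions, close to the 39.5% among regions not called and against 14.4% among those called higher. AP1AR had 25 m6A and 11 IgG reads in an upstream region that was called higher, and 0 and 11 in the lower region after it. UBL3 had 64 and 10 upstream and 0 and 11 downstream. In LNCaP and HPr1AR the 17 and 20 lower regions were wider, with medians of 280 and 485 bp and 31 and 30.5 IgG reads, and 1 and 3 of them followed a higher region.

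Most genes of the m6A writer were higher at their own 3′ ends, as were most genes overall. Of 12 writer genes, 9 had a gene-end region in each line, and 8, 7 and 8 of them were higher in 22Rv1, LNCaP and HPr1AR. Relative to the median of all regions 6, 7 and 7 were higher and 0, 0 and 1 lower. The median log2 ratio of their regions was 3.36, 3.20 and 2.82. Over all genes with a member, 81.1%, 78.2% and 78.6% had a higher region. On the scale centred on the median of all regions, 41.9%, 60.1% and 60.5% of all these genes had a higher region and 18.5%, 11.2% and 10.6% a lower one, and a gene with several regions can be in both shares. RBM15, an adaptor that guides the writer to RNA, had 80 m6A and 3 IgG reads in 22Rv1 (log2 ratio 5.28), at least 66 and 7 in LNCaP (4.41) and at least 63 and 5 in HPr1AR (4.85). METTL14, the RNA-binding partner of the catalytic METTL3, had 63 and 7 in 22Rv1 (3.72), at least 65 and 5 in LNCaP (4.88) and at least 61 and 8 in HPr1AR (4.12). The accessory subunits ZC3H13 and CBLL1 were higher in all 3 lines as well. METTL16, a separate methyltransferase, was not called in any line, with 5 m6A and 5 IgG reads in 22Rv1, 3 and 7 and then 3 and 5 in LNCaP, and 1 and 10 in HPr1AR, all at regions with a far listing downstream.

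Readers and erasers went both ways relative to the median. Of 11, 10 and 11 such genes with a region, 7, 8 and 7 were higher. Relative to the median of all regions 2, 4 and 5 were higher and 6, 4 and 4 lower. The median log2 ratio of their regions was 1.16, 1.57 and 0.85, beside 2.63, 2.37 and 2.21 over all gene ends. Of all genes with a gene-end region 81.1%, 78.2% and 78.6% were higher. Relative to the median 41.9%, 60.1% and 60.5% of all these genes were higher and 18.5%, 11.2% and 10.6% lower. YTHDF2, which speeds the decay of methylated RNA, had 66 m6A and 15 IgG reads in 22Rv1 (log2 ratio 2.68), at least 68 and 32 in LNCaP (2.26) and at least 64 and 22 in HPr1AR (2.73). IGF2BP3, which stabilises bound transcripts, had 75 and 4 in 22Rv1 (4.78), 47 and 0 in LNCaP (at least 5.15) and at least 67 and 18 in HPr1AR (3.09). The eraser FTO was not called in any line, with 5 and 7, 3 and 4, and 8 and 7 m6A and IgG reads, again at regions with a far listing downstream. RBMX was not called either, with 7 and 16, 4 and 14, and 6 and 13. FMR1 was lower in 22Rv1, where a region of 70 bp had 0 m6A and 10 IgG reads. In HPr1AR it was not called, with 10 and 13, and in LNCaP its first region was higher and the 2 after it were not.

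Of 25 transcripts often used as m6A examples in other cells, 12, 14 and 16 had a gene-end region, and each of these had at least 1 higher one. Counted by region, 19 of 26, 16 of 19 and 19 of 28 were higher, or 73.1%, 84.2% and 67.9%, beside 67.9%, 61.6% and 60.6% of all gene-end regions. Counted by gene and relative to the median of all regions, 7, 12 and 12 genes were higher and 3, 1 and 1 lower. The median log2 ratio of their regions was 2.84, 2.64 and 2.26. EP300, a histone acetyltransferase, had 91 m6A and 13 IgG reads in 22Rv1 (log2 ratio 3.35), at least 68 and 17 in LNCaP (3.18) and at least 61 and 4 in HPr1AR (5.12), the 22Rv1 reads being the nearest of several fitting pairs. KLF4, a pluripotency factor, had 49 and 3 in 22Rv1 (4.58), at least 70 and 7 in LNCaP (4.50) and at least 64 and 6 in HPr1AR (4.61). Immediate early genes, which include KLF4, were higher in 12 of 12, 10 of 11 and 12 of 12 cases. Relative to the median 6, 9 and 7 were higher and 1, 0 and 0 lower. Their median log2 ratio was 3.35, 3.25 and 2.44. Beside both lists, 81.1%, 78.2% and 78.6% of all genes with a gene-end region were higher. Relative to the median 41.9%, 60.1% and 60.5% of all these genes were higher and 18.5%, 11.2% and 10.6% lower. DUSP4, a phosphatase that switches off MAP kinases, had 51 m6A and 3 IgG reads in 22Rv1 (4.63), at least 68 and 17 in LNCaP (3.18) and at least 63 and 18 in HPr1AR (3.00).

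Among the genes of the androgen response, 19 of 20, 19 of 23 and 16 of 18 with a region were higher. Relative to the median of all regions 8, 8 and 10 were higher and 4, 2 and 3 lower. The median log2 ratio of their regions was 2.47, 1.503 and 1.84. Of all genes with a gene-end region 81.1%, 78.2% and 78.6% were higher. Relative to the median 41.9%, 60.1% and 60.5% of all these genes were higher and 18.5%, 11.2% and 10.6% lower. PTGER4, a prostaglandin receptor, had 67 m6A and 1 IgG reads in 22Rv1 (log2 ratio 6.61), at least 68 and 7 in LNCaP (4.46) and at least 64 and 2 in HPr1AR (6.19). KLK3, which encodes prostate-specific antigen, had 44 and 3 in 22Rv1 (4.42) and was higher. In LNCaP it had at least 69 m6A and 154 IgG reads, a bound that left its direction undetermined, and HPr1AR had no KLK3 region. STEAP1, a metalloreductase, was not called in any line, with 4 and 8, 28 and 90, and 4 and 6 m6A and IgG reads, of which the LNCaP pair was the nearest of several.

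The retinoid pathway, to which RARG belongs, was higher in 12 of 13, 9 of 10 and 12 of 14 genes. Relative to the median of all regions 4, 9 and 10 were higher and 1, 0 and 0 lower, and the median log2 ratio was 2.55, 3.38 and 2.19. RARA, a retinoic acid receptor, had 47 m6A and 4 IgG reads in 22Rv1 (log2 ratio 4.10), 50 and 0 in LNCaP (at least 5.24) and at least 61 and 8 in HPr1AR (4.12). These RARA regions have a far listing downstream. RXRA, the dimer partner of the receptors, had 72 and 3 in 22Rv1 (5.13), at least 64 and 14 in LNCaP (3.37) and at least 65 and 16 in HPr1AR (3.21). NR2F2, an orphan nuclear receptor, had 63 and 4 in 22Rv1 (4.52), at least 65 and 11 in LNCaP (3.74) and at least 65 and 26 in HPr1AR (2.51). The related NR2F1 had 55 and 15 in 22Rv1 (2.42), 30 and 0 in LNCaP (at least 4.50) and at least 59 and 1 in HPr1AR (7.07). ALDH1A1 in 22Rv1, RDH10 in LNCaP and HPr1AR, and CRABP2 in HPr1AR were the genes not called. Over all genes with a gene-end region 81.1%, 78.2% and 78.6% were higher. Relative to the median 41.9%, 60.1% and 60.5% of all these genes were higher and 18.5%, 11.2% and 10.6% lower. No list was tested against the rest.

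Ribosomal protein genes, which are short and densely translated, stood at the other end. Of 78 genes, 26, 26 and 27 had a gene-end region, and 4, 10 and 7 of these were higher. Their median log2 ratio was 0.09, 0.40 and 0.40, beside 2.63, 2.37 and 2.21 over all gene-end regions. Relative to the median of all regions 1, 2 and 3 genes were higher and 22, 11 and 14 lower. RPS23 and RPS27A were lower in 22Rv1 on the unshifted scale as well, with 14 m6A and 46 IgG reads and with 10 and 37. RPL28 and RPL27A were the exceptions that were higher in every line, RPL28 with 30 m6A and 2 IgG reads in 22Rv1 (log2 ratio 4.45), 49 and 1 in LNCaP (6.79) and 20 and 0 in HPr1AR (at least 3.93). The median widths of the ribosomal regions were 500, 845 and 690 bp, beside 540, 720 and 650 bp over all gene ends. RPS9, as an example, had 42 and 52 m6A and IgG reads in 22Rv1, 62 and 132 in LNCaP and 47 and 118 in HPr1AR. The reads of RPS23 in 22Rv1 and those of RPS9 in LNCaP and HPr1AR were the nearest of several fitting pairs.

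Factors that cut and polyadenylate transcripts were higher in 10, 10 and 11 of 13 genes, beside 81.1%, 78.2% and 78.6% of all genes with a gene-end region. Relative to the median of all regions 4, 8 and 9 were higher and 2, 2 and 4 lower, and the median log2 ratio was 2.61, 2.60 and 2.21. CLP1, a kinase subunit of the cleavage machinery, had 55 m6A and 2 IgG reads in 22Rv1 (log2 ratio 5.33), at least 61 and 1 in LNCaP (7.11) and at least 65 and 8 in HPr1AR (4.21). NUDT21, which steers the choice of poly(A) site, was not called in any line, with 8 and 12, 7 and 20, and 6 and 18 m6A and IgG reads over 3360 to 3440 bp. PABPC1, the cytoplasmic poly(A)-binding protein, was not called either, with 26 and 27, 25 and 53, and 27 and 46, of which the LNCaP pair was the nearest of several.

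The same genes carried gene-end regions in the 3 lines to a large extent. A member was present in all 3 for 6696 of the 10115 genes with one in any line, which is 83.0%, 81.5% and 76.7% of the genes of 22Rv1, LNCaP and HPr1AR. A higher member was present in all 3 for 5000 of 8391 genes, or 76.5%, 77.8% and 72.9% of each line's. Of the 22Rv1 members 84.1% overlapped an HPr1AR member and 84.0% a LNCaP member. Of the LNCaP members 75.4% overlapped a 22Rv1 member and 81.9% an HPr1AR member, and of the HPr1AR members 68.0% and 73.6% overlapped 22Rv1 and LNCaP members. The tables differ in length and depth. Shares of overlap over all regions are not given here, so these shares do not set gene ends apart from other regions. Members without any counterpart were narrow, and they were called higher less often than the others. Of the 22Rv1 members with no HPr1AR region of any kind 56.4% were still higher, against 69.5% of the others. With no LNCaP region 53.3% were, against 70.0%. The 30.1% of HPr1AR members with no 22Rv1 region of any kind had a median width of 170 bp, and 31.7% of them were higher against 73.1% of the others.

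The downstream ends of the stretches were also alike. Taking the most downstream end per gene, 22Rv1 and HPr1AR lay within 500 bp of each other in 78.6% of 6348 genes, LNCaP and HPr1AR in 81.5% of 6454, and 22Rv1 and LNCaP in 81.4% of 6404. Ends within 50 bp made up 41.3%, 46.5% and 42.5%. Where they were more than 500 bp apart, the end in 22Rv1 was the further downstream in 343 genes and that in HPr1AR in 1016. For LNCaP and HPr1AR the counts were 537 and 657, and for 22Rv1 and LNCaP 287 and 904. 22Rv1 was the shallowest table in total reads and HPr1AR the deepest, with 8.12 and 16.8 M reads, and how far depth sets these ends was not tested.

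At gene ends that overlapped and had whole reads in both lines, few differences in read ratio between lines passed the adjusted threshold. Members with a deposited p-value of 0, namely 45 in 22Rv1, 2649 in LNCaP and 3212 in HPr1AR, were left out. Differences at those members were not tested. Between 22Rv1 and HPr1AR, 92 of 6769 member pairs differed, or 1.36% against 0.903% of all overlapping region pairs, by a conditional exact test of the 4 read counts with a Benjamini-Hochberg threshold of 0.05 over all pairs. The ratio was higher in 22Rv1 in 38 and lower in 54, against backgrounds of 0.33% and 0.573%. Between LNCaP and HPr1AR, 86 of 6688 differed (1.29% against 0.838%), 52 higher and 34 lower in LNCaP, against 0.437% and 0.4%. Between 22Rv1 and LNCaP, 80 of 7051 differed (1.13% against 0.699%), 19 higher and 61 lower in 22Rv1, against 0.19% and 0.509%. The test compares the pooled reads of the tables, since no sample spread is known. It also compares representative windows that may lie apart in regions that merely overlap. Over all member pairs the quartiles of the log2 difference were −0.93 and 0.76, −0.92 and 0.76, and −0.89 and 0.78, in the same order of comparisons. With few reads a difference can be missed, so a pair that did not pass is not shown to be equal.

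The split between directions depended on the scale. With each line centred on the median of all its regions, 17 pairs were higher and 296 lower in 22Rv1 against HPr1AR, beside 0.146% and 3.74% of all pairs. LNCaP had 46 higher and 37 lower against HPr1AR, beside 0.396% and 0.45%. 22Rv1 had 12 higher and 267 lower against LNCaP, beside 0.0989% and 2.7%. Where the 2 regions had to share at least 50% of each other, 8 and 7, 6 and 7, and 7 and 8 pairs were higher and lower in the 3 comparisons. These counts are too small to give a direction, and their share over all pairs is not given here.

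TKT, the transketolase of the pentose phosphate pathway, was a case with closely matching regions. Its regions covered practically the same 3160 bp near chr3:53257751-53260910. Their representative windows had 35 m6A and 58 IgG reads in 22Rv1 (log2 ratio −0.18), 43 and 83 in LNCaP (0.23), and 30 and 4 in HPr1AR (4.10). Such windows can lie apart even in matching regions. TKT was higher in HPr1AR and not called in the cancer lines. The difference was −4.28 for 22Rv1 minus HPr1AR (adjusted p = 2.09e-06) and −3.87 for LNCaP minus HPr1AR (adjusted p = 1.93e-05, both by the conditional exact test with Benjamini-Hochberg adjustment).

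CDKN1A, the p21 inhibitor of the cell cycle, had 18 m6A and 40 IgG reads in LNCaP (log2 ratio 0.03) and 61 and 18 in HPr1AR (2.95), with a difference of −2.93. CAPG, which caps actin filaments, went the other way, with 32 m6A and 0 IgG reads in 22Rv1 (at least 3.96) and 19 and 35 in HPr1AR (0.31), and a difference of at least 3.65. Between the cancer lines, MAP2K2, the kinase MEK2, had 43 and 4 in 22Rv1 (3.97) and 29 and 44 in LNCaP (0.58). EIF4B, a helper of the translation helicase, had 63 and 5 in 22Rv1 (4.203) and 74 and 80 in LNCaP (1.06), and was higher in both. The differences, 22Rv1 minus LNCaP, were 3.40 for MAP2K2 and 3.14 for EIF4B. Adjusted p-values of these 4 genes were 4.74e-05 to 0.00109 by the same conditional exact test. For TKT in both cancer lines, CDKN1A in both lines, and MAP2K2 and EIF4B in LNCaP the reads were the nearest of several fitting pairs.

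**Figure D5:**
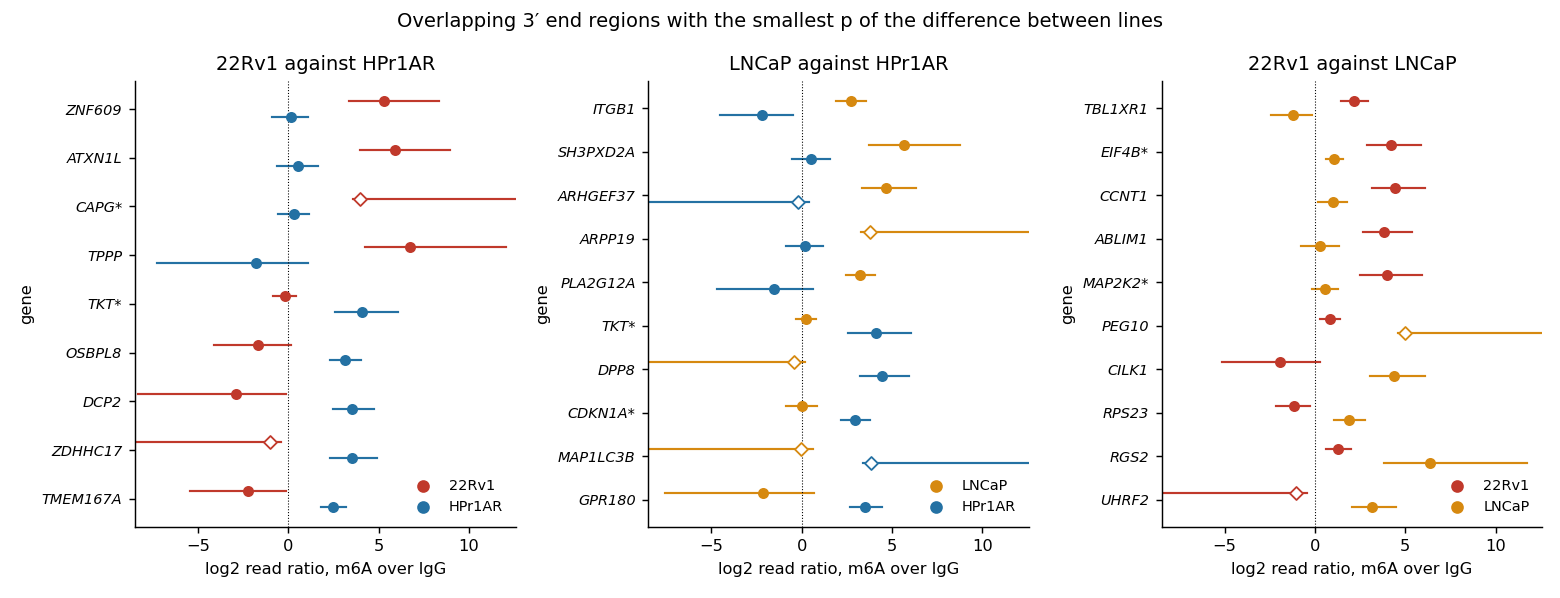
Log2 read ratio, m6A over IgG (x axis), of the overlapping gene-end regions with the smallest p of the difference, for 9 or 10 genes (y axis) in each of 3 pairs of lines. Points are coloured by line with exact 95% counting intervals, open diamonds are bounds where a count was 0, and a star marks regions that share at least 50% of each other. TKT stands at −0.18 in 22Rv1 and 0.23 in LNCaP against 4.10 in HPr1AR.

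The remaining named differences joined regions that overlapped only in part. ITGB1, an integrin, had 52 m6A and 18 IgG reads in LNCaP over 870 bp and 3 and 31 in HPr1AR over the last 210 bp of that stretch. PEG10, an imprinted gene derived from a retrotransposon, had 68 and 56 in 22Rv1 (0.83) and 42 and 0 in LNCaP (at least 4.98), over regions that shared 980 bp. RPS23 had 14 and 46 in 22Rv1 over 480 bp and 33 and 20 in LNCaP over 3080 bp. The LNCaP reads of ITGB1 and the reads of RPS23 in both lines were the nearest of several fitting pairs. Whether the same bases differ cannot be told from the tables, in these genes or in those with closely matching regions.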

How the data were processed

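The samples were 17 libraries of m6A or IgG pulldown RNA in 6 groups, enriched with an antibody kit and sequenced on a NovaSeq instrument, per the labels. A table for each line was deposited by the authors, with neighbouring windows that advance by 10 bp joined into regions. Per the file headers, each table holds the count of windows per region, a p-value and adjusted p-value per region, the log2 fold of a representative window, and the overlapping and neighbouring genes. The sources used here name neither the aligner, window counter and test nor the samples that entered. The numerator was taken as m6A from the names of the tables. No column held values of a sample, and 0 such columns were left unused.

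The deposited log2 fold was found to equal the log2 m6A count minus 2 times the log2 IgG count plus a constant. Fitted per table, this gave whole reads, depths and the ordinary read ratio, with 3 reads put in place of 0. A 0 in m6A thus makes the ratio an upper bound, and a 0 in IgG a lower bound. Each region was tested with an exact two-sided binomial test against the depths. Pairs of regions of 2 lines that overlapped by at least 1 bp were tested with a conditional exact test. Both regions had to have whole reads, so regions with a deposited p-value of 0 did not enter. Benjamini-Hochberg adjustment ran over all regions or pairs of a table, at 0.05. The scripts were checked on simulated data. These p-values measure counting error only, and PCR copies count as reads.

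Named genes were, per line, the members with the smallest adjusted p, the largest deposited fold, the smallest adjusted p among lower regions and the largest width, the genes with most members, the genes ranked highest over the 3 lines, and the 5 smallest p of a difference in each direction. Some genes that this rule names are not reported here. The members and gene lists were chosen with earlier results of these data known. Gene classes came from RefSeq names. Alternatives covered thresholds, ambiguous reads, the shared read rate, region marks, centring, members per gene, overlap and width. Python 3.11.15, numpy 2.4.6, pandas 2.3.3, scipy 1.17.1 and matplotlib 3.10.9 were used.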

Additional observations from a re-analysis of the deposited data

Results flagged for a closer look

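These gene-end regions differed in read ratio between lines by the conditional exact test of the pooled reads (Benjamini-Hochberg adjusted over all overlapping pairs), and were among the 5 with the smallest p in each direction of each pair of lines. Values are differences of the log2 read ratio, m6A over IgG. For 22Rv1 minus HPr1AR they were 5.14 for ZNF609, 5.36 for ATXN1L, 3.65 for CAPG and 8.57 for TPPP, and −4.28 for TKT, −4.80 for OSBPL8, −6.42 for DCP2, −4.55 for ZDHHC17 and −4.75 for TMEM167A. For LNCaP minus HPr1AR they were 4.89 for ITGB1, 5.13 for SH3PXD2A, 4.89 for ARHGEF37, 3.57 for ARPP19 and 4.73 for PLA2G12A, and −3.87 for TKT, −4.85 for DPP8, −2.93 for CDKN1A, −3.90 for MAP1LC3B and −5.68 for GPR180. For 22Rv1 minus LNCaP they were 3.42 for TBL1XR1, 3.14 for EIF4B, 3.46 for CCNT1, 3.55 for ABLIM1 and 3.40 for MAP2K2, and −4.16 for PEG10, −6.29 for CILK1, −3.07 for RPS23, −5.10 for RGS2 and −4.21 for UHRF2. The regions of TKT, CAPG, CDKN1A, EIF4B and MAP2K2 shared at least 50% of each other, and the other named pairs shared less. The difference is a lower bound in size for CAPG, ZDHHC17, ARHGEF37, ARPP19, DPP8, MAP1LC3B, PEG10 and UHRF2, where a count was 0. For TKT, ITGB1, PLA2G12A, CDKN1A, GPR180, TBL1XR1, EIF4B, ABLIM1, MAP2K2, RPS23 and UHRF2 at least 1 count pair was the nearest of several that fit. With each line centred on its median, all 29 kept their direction and their side of the threshold. All also passed 0.01, which their choice by smallest p had fixed, since the largest adjusted p was 0.00109 (conditional exact test). No outlying sample could be looked for, since the tables hold no sample values.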

How the results depend on the processing

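Values run in the order 22Rv1, LNCaP and HPr1AR. The share of gene-end regions called higher became 73.2%, 68.2% and 69.1% for regions marked PE, 72.0%, 67.3% and 67.0% for the most downstream region per gene, and 68.8%, 62.5% and 61.5% without regions of 1 window. It became 31.1% in 22Rv1 with the ratio centred, 43.5% in LNCaP and 47.9% in HPr1AR with only single pairs of reads, and 77.8% in LNCaP and 78.9% in HPr1AR above the shared read rate of 0.862 CPM. Alternatives chosen after seeing the data gave 71.3%, 66.6% and 66.4% without far listings and 75.1%, 71.1% and 70.3% for the most upstream region per gene. With the ratio centred, 17.2% of all 22Rv1 regions were higher. For the other settings shares over all regions are not given here. Whether gene ends stay above all regions under those settings was therefore not tested. The median log2 ratio became 2.81 in 22Rv1 and 2.46 in LNCaP with a pseudocount of 0.5, 1.76 in LNCaP and 1.61 in HPr1AR with rebuilt reads only, 3.10 and 2.94 in these lines above the shared rate, and 2.94, 2.76 and 2.61 for the most upstream region. The first region of a gene had the larger ratio in 66.7%, 66.1% and 63.9% of genes at like widths.

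With a reciprocal overlap of 50%, 51.1% of 22Rv1 members overlapped HPr1AR members and 45.0% the reverse, 57.5% of LNCaP members overlapped HPr1AR members and 51.9% the reverse, and 54.7% of 22Rv1 members overlapped LNCaP members and 53.4% the reverse. Among higher members the shares were 80.4% for 22Rv1 in HPr1AR, 76.5% for HPr1AR in 22Rv1, 76.0% for HPr1AR in LNCaP, 79.8% for 22Rv1 in LNCaP and 82.0% for LNCaP in 22Rv1. At equal numbers they were 74.1% for HPr1AR in 22Rv1, 78.8% for LNCaP in HPr1AR, 77.5% the reverse and 76.8% for LNCaP in 22Rv1. Pairs higher and lower were 20 and 30 at 0.01, 8 and 7 at reciprocal overlap and 17 and 296 centred for 22Rv1 against HPr1AR. They were 26 and 16, 6 and 7, and with single pairs of reads (added later) 26 and 19 for LNCaP against HPr1AR. For 22Rv1 against LNCaP they were 9 and 30, 7 and 8, 12 and 267 centred, and 6 and 16 with single pairs. Fewer pairs were tested at reciprocal overlap and with single pairs of reads than in the main setting. Shares over all pairs are not given here at 0.01, at reciprocal overlap or with single pairs, so these counts have no background beside them.

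Among named regions, 10 lost their call, namely MBD2, NDUFA5, SMPDL3A, NDUFB9, ACAT1, SDHB, STAG2 and ITGB1 at 0.01 and FGFR3 and NIBAN2 when centred, and ATXN2L in 22Rv1 gained a lower call when centred. No called region and no named difference changed sign. At reciprocal overlap higher and lower pairs were nearly even. They were 8 and 7 in place of 38 and 54 for 22Rv1 against HPr1AR. For LNCaP against HPr1AR they were 6 and 7 in place of 52 and 34. Fewer pairs were tested at reciprocal overlap, and counts this small give no direction. The cause was not tested. Deposited p-values of 0 leave 2649 LNCaP and 3212 HPr1AR members at bounds, and a region with few reads can miss a difference at this depth. No paired analysis was possible because the tables hold no values per sample, and for the same reason leaving out replicates was not possible.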
